A study of Homo sapiens with 6 samples.

Results

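The genes described here encode the core machinery that transcribes nuclear DNA: the subunits of RNA polymerases I, II and III, the general transcription factors that place polymerases on promoters, and the elongins. They were taken from the count table by symbol (POLR1, POLR2 or POLR3, GTF2 or GTF3, TAF followed by a digit, and ELOA, ELOB or ELOC), leaving out symbols with hyphens and pseudogenes. This gave 58 genes of the 10072 in the table, under 57 symbols because POLR2J3 stood at 2 loci. By role, 14 encode subunits particular to polymerase I, polymerase III or both, 8 encode subunits of polymerase II alone, 5 encode subunits shared by all 3 polymerases, 10 encode polymerase II factors of the TFII series, 13 encode TAFs, 5 encode TFIIIA or TFIIIC, and 2 encode elongins. POLR2M, which carries a polymerase name without being one of these subunits, made up the rest.

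The libraries came from Calu-6, an established cell line from a human lung carcinoma. The labels give its genotype as WT, although the count columns bear the study's word for cells with an empty expression vector. The study's methods also describe cells stably carrying that vector. For 48 h, cells received 10 nM of either siControl, a non-silencing siRNA, or siDelta2-4, an siRNA against the junction of exons 1 and 5 in the TERT Delta 2-4 splice variant, with 3 libraries in each group, and PCR-amplified cDNA was read on a nanopore sequencer. Library totals were 1106413, 1077555 and 1037468 counts for siControl and 1309241, 1183889 and 1070009 for siDelta2-4, and below each library is named by the rank of its total within its group. TERT itself was not analysed here, so the knockdown has no check in these values. Of 6 epithelial markers, KRT8 (110 to 137 CPM) and KRT18 (152 to 186 CPM) were well counted, KRT7, EPCAM and KRT19 had 41, 13 and 1 counts in all, and CDH1 was at 0. Of the mesenchymal markers, VIM was at 123 to 165 CPM and FN1 had 2 counts, 4 of 4 lung lineage markers were at 0, and of 9 leukocyte, endothelial and fibroblast markers LYZ alone had counts, 5 in all. The study calls these libraries biological replicates, but neither it nor the labels say that they came from separate cultures, so p-values measure the spread between these samples.

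Polymerase I makes the precursor of the large ribosomal RNAs, polymerase II makes mRNA, and polymerase III makes tRNAs, the 5S ribosomal RNA and other short RNAs. The enzymes have large catalytic subunits of their own and a common set of small subunits, of which POLR2L, POLR2K, POLR2H, POLR2F and POLR2E sit in every one of them. POLR1C and POLR1D form an assembly platform found in polymerases I and III. TFIID, built from TBP and the TAFs, and the factors TFIIA, TFIIB, TFIIE, TFIIF and TFIIH assemble with polymerase II at promoters, SL1 does so for polymerase I, and TFIIIC for polymerase III. ELOB and ELOC are small proteins that help polymerase II elongate as partners of elongin A and that also serve as adaptors in cullin ubiquitin ligases.

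Promoter sequence was the feature looked for that the choice by name did not use. RefSeq (GRCh38.p14) held an entry for 44 of the 57 symbols, each running from 250 bases before to 50 bases after the gene start. The ETS motif CCGGAAG, searched on both strands, was found in 21 of these 44 promoters (47.7%), against 24.1% of 5079 promoters of counted protein-coding genes and 10.3% of all 35116 promoters in the table. Among the 19 tested members with an entry the motif was in 6 (31.6%). The GC box GGGCGG stood in 59.1% of the members' promoters, 69.4% of those of counted genes and 45.0% of all, and TATAAA in 6.82%, 6.38% and 11.5%. These are matches of letters and not sites of binding. Gene starts are those of RefSeq, and that of POLR1C lies inside the Gencode 44 span of the gene, which begins upstream at chr6:43509702. The promoters of POLR2L and POLR1C are shown because these genes passed the test in opposite directions and have an entry. Each runs 5′ to 3′ on the strand of the gene, from 250 bases before the start to 30 bases after it, with GC boxes and ETS motifs in capitals (either strand, with overlapping ETS matches run together).
POLR2L promoter, chr11:842500-842779 of GRCh38.p14, minus strand, 2 GC boxes and 0 ETS motifs: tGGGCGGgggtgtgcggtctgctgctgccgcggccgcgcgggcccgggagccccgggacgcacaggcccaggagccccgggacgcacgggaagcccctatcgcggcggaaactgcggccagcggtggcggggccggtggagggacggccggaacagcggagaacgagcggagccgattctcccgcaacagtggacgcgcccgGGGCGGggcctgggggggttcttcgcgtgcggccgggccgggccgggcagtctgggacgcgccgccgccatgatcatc
POLR1C promoter, chr6:43516839-43517118 of GRCh38.p14, plus strand, 3 ETS motifs of which a pair overlap, and 1 GC box: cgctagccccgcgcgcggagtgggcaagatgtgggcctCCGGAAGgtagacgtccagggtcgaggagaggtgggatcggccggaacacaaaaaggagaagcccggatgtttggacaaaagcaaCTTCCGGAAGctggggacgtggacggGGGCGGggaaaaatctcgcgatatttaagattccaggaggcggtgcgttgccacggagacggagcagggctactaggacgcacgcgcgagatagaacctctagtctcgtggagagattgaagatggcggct

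The 58 genes together took between 0.309% and 0.342% of each library. Their counts were unevenly spread. POLR2L alone held 18.6% of the members' counts, POLR2L, ELOB and ELOC 43.4%, and the 10 most counted members 79.0%. Between genes, levels were compared as CPM (counts scaled to a common library total with TMM, a correction for composition) per kilobase of the counted models, averaged over the 6 libraries. On that scale POLR2L stood highest at 704, followed by ELOB at 483, TAF5 at 476, POLR2I at 310 and POLR2J at 233. The counts named TAF5 were all on models outside the annotation, so its place is not that of annotated TAF5 mRNA. POLR2L, ELOB, TAF5 and POLR2I each overlap an opposite-strand gene with a count within 2-fold of theirs, as described below, so these levels are of uncertain assignment. Where 1 read stands for 1 cDNA, division by length lifts genes counted on short models, and in CPM alone the order was POLR2L at 617, ELOB at 472, ELOC at 343, TAF5 at 224 and POLR2J at 218. Subunits that sit together in every polymerase were far apart in counted level. In CPM per kilobase, POLR2L was at 704, POLR2K at 172, POLR2H at 127, POLR2F at 84.5 and POLR2E at 7.93. In CPM alone, POLR2L was at 617 and POLR2E at 21.9. Whether transcript length or read assignment contributed to these differences was not tested. The 24 tested members had at least 71 counts over the 6 libraries, with a median of 647.

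**Figure D1:**
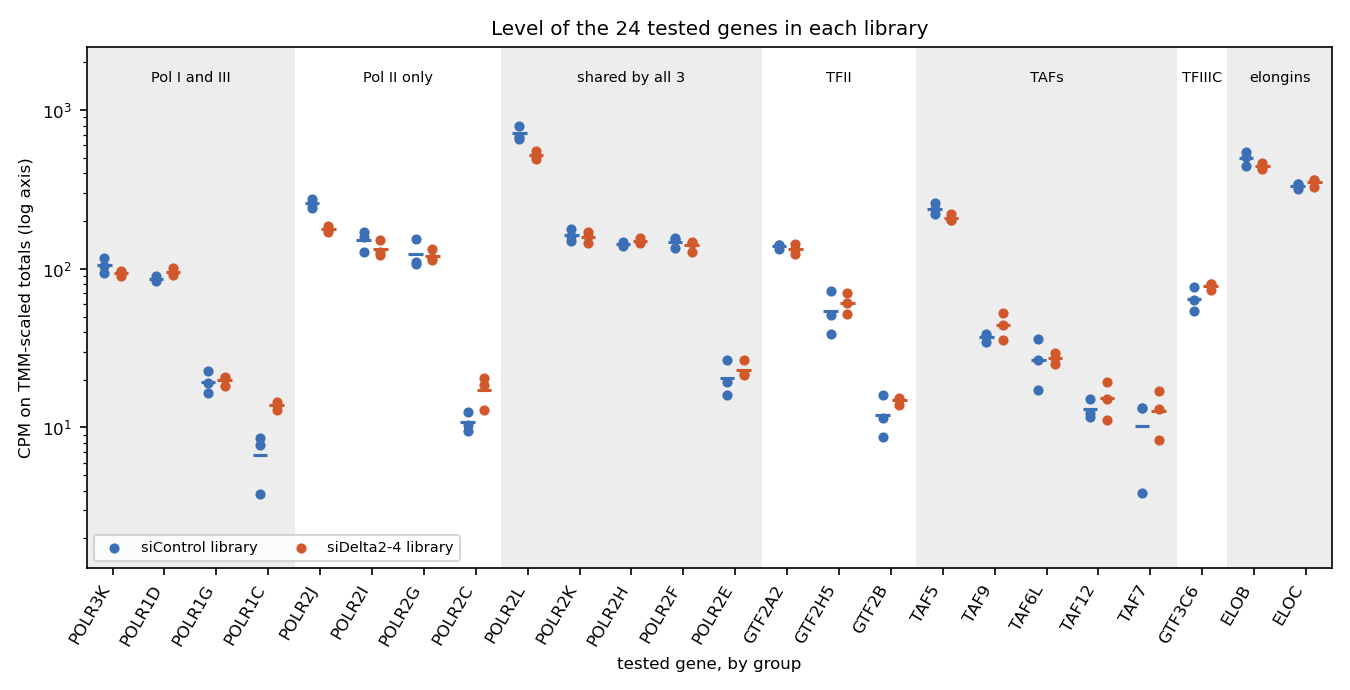
Level of each of the 24 tested genes in every library, in CPM on a log axis, ordered by role. Points are libraries and bars are group means. All 3 siDelta2-4 points of POLR2J and POLR2L lie below all 3 siControl points, and those of POLR1C, POLR2C and POLR1D lie above.

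The other 34 members had too few reads for the test, between 1 and 53 counts with a median of 10, and together held 2.26% of the members' counts. They included the 3 SL1 subunits with counts (TAF1A, TAF1B and TAF1D), both TFIIE subunits (GTF2E1 and GTF2E2), GTF2F2 of TFIIF, and 7 of the 8 subunits of polymerase III alone. A count of 0 in some library was found for 21 of them. All models in the table were counted at least once in siDelta2-4, while 37 of the 156 models of members had none in siControl, so low members were listed only if read in siDelta2-4. GTF3A, which encodes TFIIIA, was counted 3, 5 and 3 times in siControl (highest, middle and lowest total) and 7, 8 and 6 times in siDelta2-4. GTF2F2 was counted 4, 2 and 3 times in siControl and 4, 19 and 6 times in siDelta2-4, so 1 library held 19 of its 38 counts. A further 41 protein-coding genes of Gencode 44 fit the symbols and were not analysed here, among them the catalytic subunits POLR1A, POLR1B, POLR2A, POLR2B and POLR3B, the scaffold TAF1 and elongin A. The canonical transcripts of these 41 had a median length of 3551 bases, against 2345.5 for the 34 members below the filter and 1465.5 for the 24 tested. Levels of the 41 were not measured here.

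The comparison of siDelta2-4 with siControl asks whether targeting the TERT variant moved this machinery. With the quasi-likelihood test of edgeR, 3 of the 24 tested members passed at an adjusted p under 0.1: POLR2J and POLR2L were lower and POLR1C was higher in siDelta2-4. That is 12.5% of the members, while 12.9% of the 3888 tested genes passed (272 higher, 7.0%, and 231 lower, 5.94%). With another scaling in the same test, the split over all genes was 357 higher of 515 with library totals alone and 249 higher of 514 with the size factors of DESeq2. The DESeq2 test, which differs in tool, filter and scaling at once, gave 78 higher of 279, and POLR2J and POLR2L were lower in all of these. Counts at an unadjusted p under 0.05 were 4 members (16.7%) against 23.1% of all genes, and 5 members (20.8%) had groups with no overlap in CPM, against 26.0%. The median log2 fold change was 0.05 for the members and 0.03 for all tested genes, 58.3% and 53.9% were above 0, and the median absolute log2 fold change was 0.18 and 0.21. The members' shares stood near those of the whole table.

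**Figure D2:**
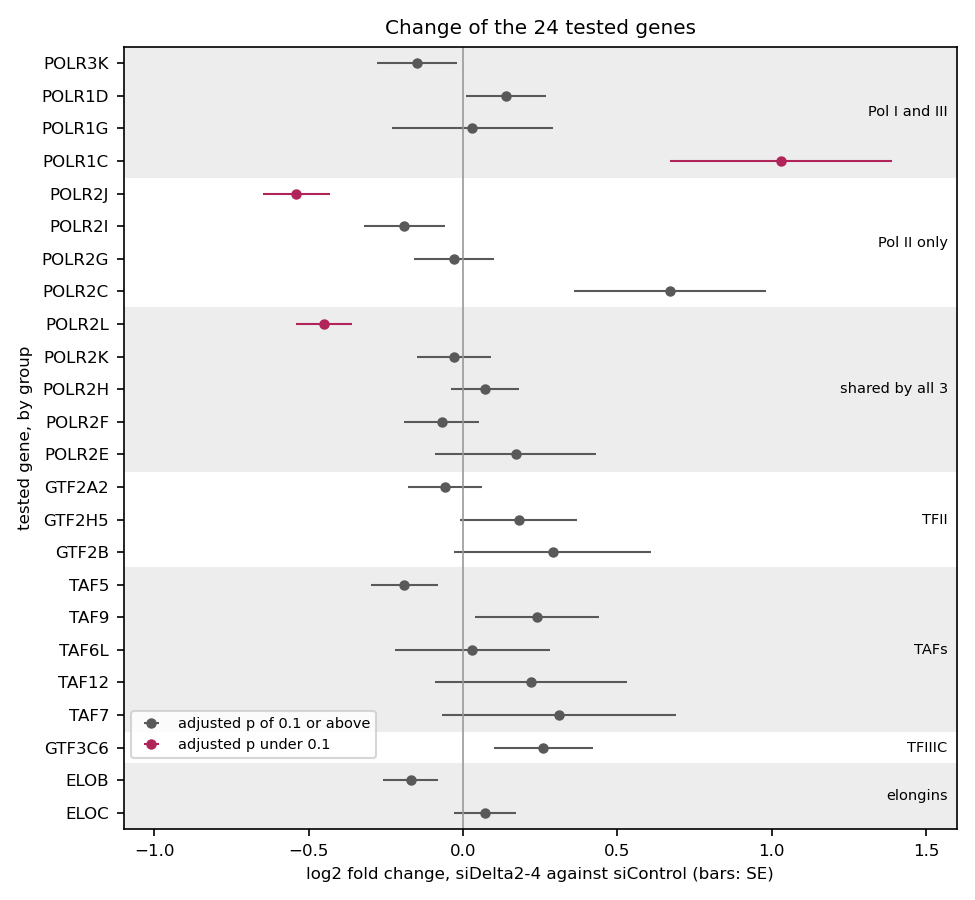
log2 fold change of siDelta2-4 against siControl for the 24 tested genes, by role, with bars of 1 SE. The 3 genes with an adjusted p under 0.1 are coloured: POLR2J at -0.54, POLR2L at -0.45 and POLR1C at 1.03.

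Among the subunits shared by all 3 polymerases, POLR2L fell. Its gene lies at chr11:837356-842529 on the minus strand, and all of its 4140 counts fell on the annotated model POLR2L-201 of 2 exons and 876 bases. CPM was 798, 681 and 658 in siControl (highest, middle and lowest total) and 495, 555 and 514 in siDelta2-4. Every siDelta2-4 library was below every siControl library. The means were 712 ± 75.1 and 521 ± 30.6 CPM (SD, n = 3 each), for a log2 fold change (± SE) of -0.45 ± 0.09 and an edgeR adjusted p of 0.00232. The 4 other shared subunits did not pass. POLR2K was at 163 ± 14.5 and 159 ± 12.8 CPM (siControl and siDelta2-4, SD, n = 3 each), with a log2 fold change of -0.03 ± 0.12. POLR2H, POLR2F and POLR2E had log2 fold changes of 0.07, -0.07 and 0.17, with SEs of 0.11, 0.12 and 0.26. Summed over these 4, the level was 474 ± 17.3 CPM in siControl and 473 ± 15.5 in siDelta2-4, and with POLR2L added it was 1190 ± 92.0 and 994 ± 17.2. The sum of the 4 differed by less than its spread between libraries.

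POLR2L overlaps CD151, a gene of the opposite strand, by 2476 bases. CD151, which encodes a membrane tetraspanin, held 4313 counts, 4229 of them on 1 added model of 2 exons and 941 bases. TALON classed that model as matching part of an annotated transcript. The counts of CD151 were 868, 816 and 715 in siControl and 702, 655 and 557 in siDelta2-4. For CD151, edgeR gave a log2 fold change of -0.54 ± 0.09 and an adjusted p of 0.000332. How reads were oriented before they were annotated is not given in the sources used here, and without strand, reads of POLR2L and CD151 cannot be told apart. With both genes summed into 1 and the whole table refitted, the log2 fold change was -0.49 ± 0.08 (adjusted p = 0.00038).

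Of the subunits of polymerase II alone, POLR2J fell. It lies at chr7:102473128-102478922 on the minus strand, and 97.4% of its 1462 counts were on POLR2J-201, a model of 4 exons and 937 bases. CPM was 256, 277 and 243 in siControl and 170, 186 and 177 in siDelta2-4. The groups did not overlap. The means of 259 ± 16.9 and 178 ± 8.25 CPM (SD, n = 3 each) gave a log2 fold change of -0.54 ± 0.11 and an adjusted p of 0.00169. POLR2J has near copies: over aligned coding bases it shared 93.9% with POLR2J2 and 94.4% with POLR2J3, which shared 99.4% with each other, so the split of reads among the copies is uncertain. POLR2J2 had 9 counts, and POLR2J3 had 53 and 4 at its 2 loci, as TALON assigned them. LRWD1, on the opposite strand to POLR2J, had 0 counts.

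POLR2C, which with POLR2J belongs to the polymerase II assembly core, moved the other way without passing. CPM was 12.5, 10.4 and 9.47 in siControl and 20.5, 12.8 and 18.5 in siDelta2-4. The groups did not overlap, and the log2 fold change was 0.67 ± 0.31 (unadjusted p = 0.0416 and adjusted p = 0.191 in edgeR). POLR2I was at 159, 170 and 128 CPM in siControl and 127, 122 and 152 in siDelta2-4, with a log2 fold change of -0.19 ± 0.13 and groups that overlapped. POLR2G, whose product forms the stalk of the enzyme, stood at 123 ± 25.9 and 121 ± 10.4 CPM (SD, n = 3 each). POLR2D, its partner in the stalk, had 13 counts and was not tested. Summed over the 8 genes, polymerase II subunits fell from 558 ± 48.3 to 460 ± 16.3 CPM with no overlap of groups, and without POLR2J the sums were 299 ± 40.0 and 282 ± 22.3 CPM and overlapped.

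Polymerases I and III had 4 tested subunits of 14. POLR1C passed with a higher level. It lies at chr6:43509702-43562419 on the plus strand and held 71 counts, 66 of them on an annotated model of 9 exons and 1275 bases. CPM was 7.71, 3.79 and 8.52 in siControl and 12.9, 14.5 and 13.9 in siDelta2-4, and the siControl library with the middle total stood lowest. The means were 6.67 ± 2.53 and 13.7 ± 0.791 CPM (SD, n = 3 each), for a log2 fold change (± SE) of 1.03 ± 0.36 and an edgeR adjusted p of 0.0752. Without that siControl library the value was 0.75 (adjusted p = 0.355). The models POLR1C-201 and POLR1C-208, with 4 and 1 counts, were read in siDelta2-4 only. With 1 rule for rows of both groups, the log2 fold change was 0.88 ± 0.36 and did not pass (edgeR adjusted p = 0.134). POLR1C also shares its locus with opposite-strand genes, YIPF3 with 59 counts and the noncoding ENSG00000271754 with 46, both with top models of 9 exons, and with all of these summed the log2 fold change was 0.56 ± 0.29 (adjusted p = 0.244).

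The other tested subunits of polymerases I and III did not pass. POLR1D, the partner of POLR1C, was at 85.8, 90.0 and 84.3 CPM in siControl and 94.0, 91.6 and 101 in siDelta2-4. These groups did not overlap but lay close, with a log2 fold change of 0.14 ± 0.13 and an adjusted p of 0.576. POLR3K, a small subunit of polymerase III with a role in termination, was at 105 ± 11.4 and 94.2 ± 3.88 CPM (SD, n = 3 each), with a log2 fold change of -0.15 ± 0.13. POLR1G, of polymerase I, had a log2 fold change of 0.03 ± 0.26. Summed levels of the 14 genes overlapped between the groups, at 235 ± 9.66 and 248 ± 4.38 CPM.

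No tested general transcription factor of polymerase II passed. GTF2A2, the small subunit of TFIIA, was at 139 ± 4.46 and 134 ± 10.4 CPM (SD, n = 3 each), a log2 fold change of -0.06 ± 0.12. GTF2H5, the smallest subunit of TFIIH, was at 51.1, 72.0 and 38.8 CPM in siControl and 60.7, 69.9 and 51.8 in siDelta2-4. Its siControl libraries spanned the whole siDelta2-4 range, and the log2 fold change was 0.18 ± 0.19. GTF2B, which encodes TFIIB, had a log2 fold change of 0.29 ± 0.32. Summed over 10 genes, the TFII factors were at 212 ± 7.89 and 225 ± 8.59 CPM.

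The TAFs had 5 tested genes of 13, and log2 fold changes from -0.19 to 0.31 with no call. TAF5, a scaffold of TFIID, was at 260, 237 and 220 CPM in siControl and 203, 222 and 204 in siDelta2-4. The groups overlapped by 1 library on each side, and the log2 fold change was -0.19 ± 0.11 (adjusted p = 0.293). TAF9 was at 34.7, 37.9 and 38.8 CPM in siControl and 35.6, 44.2 and 52.8 in siDelta2-4, a log2 fold change of 0.24 ± 0.20. TAF9 shares its locus and strand with AK6, an adenylate kinase gene with 129 counts, so the assignment of reads between them is uncertain. TAF6L, TAF12 and TAF7 had log2 fold changes of 0.03, 0.22 and 0.31 with SEs of 0.25, 0.31 and 0.38.

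The counts named TAF5 were not on TAF5 transcripts as annotated. Annotated models held 0 of its 1516 counts. The most counted model, which TALON had added, had 4 exons and 437 bases (1212 counts). The canonical TAF5 transcript has 11 exons and 3259 bases. TALON classed the added model as matching part of an annotated transcript. The neighbouring gene on the opposite strand, ATP5MK, a small subunit of the mitochondrial ATP synthase, held 1553 counts, 1252 of them on a model of 4 exons and 364 bases. The genes share 25 bases at their ends, printed here on the plus strand because no more of the sequence lies in both annotated genes.
Bases shared by TAF5 and ATP5MK, chr10:103389041-103389065 of GRCh38: acaaccagcttttccaggttcataa
The value given for TAF5 above is therefore the value of these added models, and the level of annotated TAF5 mRNA was not measured here. TAF6L was similar, with 1.64% of its 183 counts on annotated models and 180 on an added model of 2 exons, beside 179 counts of TMEM223 on the opposite strand. The changes of this pair differed. TMEM223 had a log2 fold change of -0.61 ± 0.23 (edgeR adjusted p = 0.0941) and TAF6L one of 0.03 ± 0.25. For POLR1G, 6.77% of 133 counts were on annotated models, its most counted model had 10 exons where the canonical transcript has 3, and ERCC1 on the opposite strand held 180 counts with a top model of 10 exons. These 3 were the tested members with under 10% of their counts on annotated models. They made 12.5% of the 24, near the 14.5% found for 1989 tested protein-coding genes.

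Such pairs were common among the members. Of the 24 tested genes, 11 overlapped a counted annotated gene of the opposite strand (45.8%, against 35.2% of 1989 tested protein-coding genes), and for 9 of them that gene's count was within 2-fold of the member's (37.5%, against 21.0%). These 9 members made 10 pairs, with count ratios between 0.648 and 1.35, and in 10 of 10 the most counted models of both genes had the same number of exons. ELOB had 3187 counts and SRRM2, a large splicing factor gene, 4090, of which 0.0489% were on annotated models. POLR2I had 962 and OVOL3 864, and GTF2A2 had 922 and GCNT3 802, with 0% of the OVOL3 and GCNT3 counts on annotated models. POLR2E had 150 and ARHGAP45 161. With partners summed, 2 members passed (POLR2J and POLR2L) in place of 3. No coordinates were used for genes that TALON had added, so partners among them were not looked for.

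**Figure D3:**
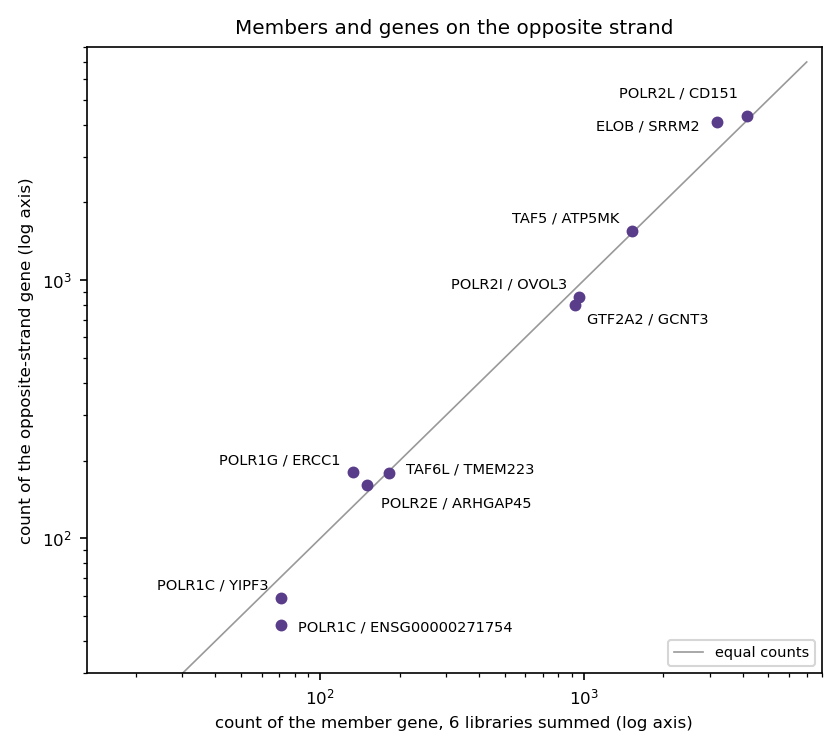
Count of each tested member against the count of an annotated gene on the opposite strand, both summed over the 6 libraries on log axes, for the 10 pairs within 2-fold of each other. The line marks equal counts, and the ratios of the pairs lie between 0.648 and 1.35.

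For polymerase III, GTF3C6 was the only tested factor. It encodes a small subunit of TFIIIC and was at 77.1, 63.5 and 54.0 CPM in siControl and 79.6, 80.3 and 73.1 in siDelta2-4. Of the siDelta2-4 libraries 2 were above every siControl library and 1 was not, and the log2 fold change was 0.26 ± 0.16 (adjusted p = 0.325). With GTF3A and the other untested members, the summed level of the 5 genes was 70.2 ± 11.1 and 87.0 ± 4.26 CPM. These sums did not overlap, but the levels of GTF3C6 alone did. The lack of overlap thus rests on low members, which were listed only if read in siDelta2-4. Most of the difference in means lay in GTF3C6, at 64.9 ± 11.6 CPM in siControl and 77.7 ± 3.97 in siDelta2-4.

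The elongins were among the most abundant members and did not pass. ELOB was at 545, 507 and 444 CPM in siControl and 441, 428 and 465 in siDelta2-4, with a log2 fold change of -0.17 ± 0.09 and an adjusted p of 0.294. Of the siControl libraries, that with the lowest total fell inside the siDelta2-4 range. ELOC was at 342, 344 and 316 CPM in siControl and 328, 361 and 364 in siDelta2-4, with a log2 fold change of 0.07 ± 0.10. ELOC had 13 models, of which ELOC-206 held 60.9% of its counts.

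At the level of transcript models, 35 models of members were tested and 2 passed (5.71%, against 6.94% of 6768 tested models). These were POLR2J-201 (log2 fold change -0.52) and POLR2L-201 (-0.42), both with an edgeR adjusted p of 0.00385. Annotated models held 85.7% of the members' counts. Added models that TALON classed as matching part of an annotated transcript, the top TAF5 model among them, held 10.3%. The remaining kinds of added model held the rest. The share of a gene's reads on each of its models was tested for 8 members with diffSpliceDGE. No member passed, 0 had an unadjusted p under 0.05, and the smallest was that of POLR1D (unadjusted p = 0.0906, adjusted p = 0.657), while 0.618% of 1132 genes passed. No other tool was run on model usage.

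Over the 24 members the log2 fold change went with the length of the counted models (Spearman rho 0.49, and 0.44 without POLR2L and POLR2J), and over all 3888 tested genes rho was 0.33. Genes share libraries and are not independent replicates, so these are descriptions. Of the called genes, POLR2L and POLR2J were counted on models of 876 and 937 bases and POLR1C on one of 1275. With a trend on length removed from each library, POLR2J and POLR2L passed at -0.56 and -0.43, and POLR1C did not (0.88, adjusted p = 0.12). In bulk RNA, fewer cells with an mRNA and less of it per cell cannot be told apart.

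The other genes of the pathway, in 8 lists by known role, had 28 tested genes of 92, and 1 passed (3.57%, against 12.9% of all tested genes). This was MED29, a subunit of the Mediator complex, which fell from 16.2 ± 1.78 to 6.86 ± 1.04 CPM (SD, n = 3 each), a log2 fold change of -1.23 ± 0.33 (edgeR adjusted p = 0.022). MED29 was 1 of 13 tested Mediator genes, whose median was -0.03. Opposite-strand partners and counts on added models are not given here for the genes of these lists. No gene passed among 2 tested partners of TBP, 3 other subunits of TFIIH, 2 polymerase III factors, 5 pausing and elongation factors, 2 elongin ligase partners and 1 factor of the mitochondrial polymerase. None of the 5 listed polymerase I factors reached the filter.

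POLR2J and POLR2L were lower in siDelta2-4 and passed under 16 of 16 alternative fits, POLR2J at -0.61 to -0.48 (adjusted p from 1.37e-05 to 0.0181) and POLR2L at -0.53 to -0.38 (adjusted p from 2.03e-06 to 0.0276). POLR1C was above 0 in all 14 alternatives that gave it an adjusted p and passed in 4 (0.56 to 1.22, adjusted p from 0.0432 to 0.355). Of the 6 fits that left out 1 library, POLR1C passed only in the one without the siControl library of lowest total. Without the siControl library that had the lowest total, 6 members passed, with ELOB (-0.27), POLR2I (-0.33) and TAF5 (-0.27) added as lower, and 1041 genes passed over the table.

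**Figure D4:**
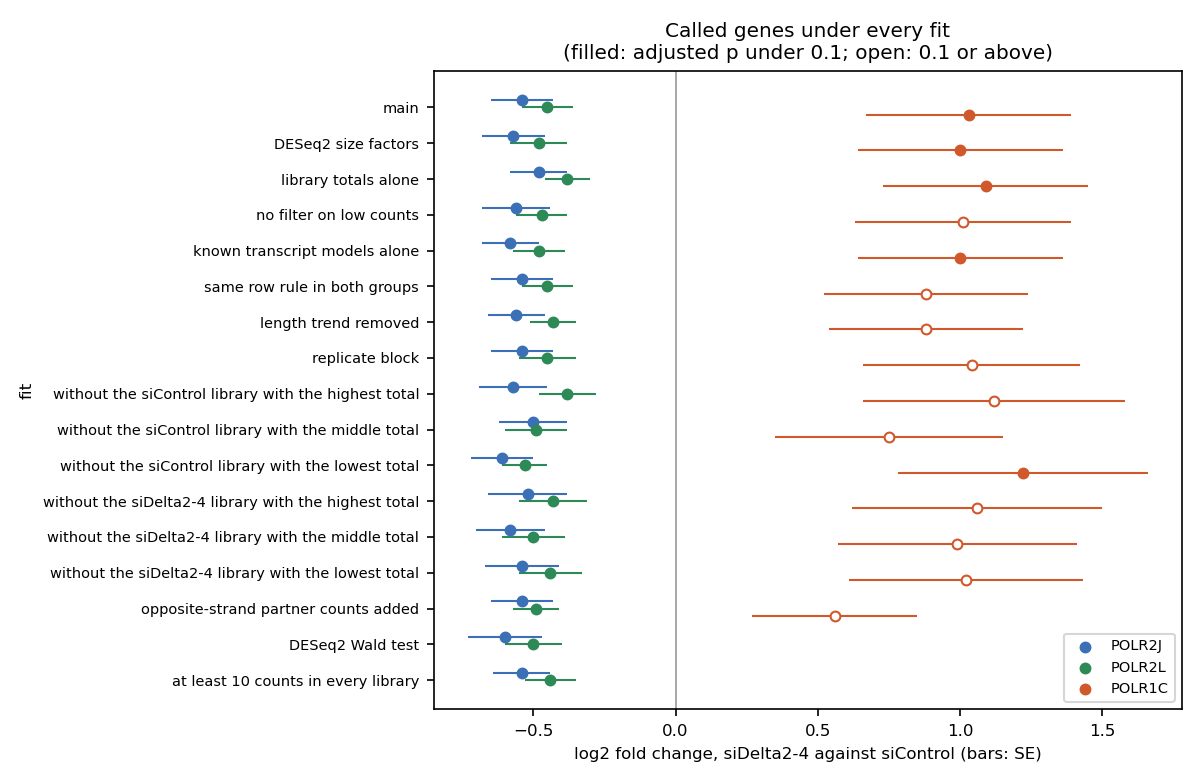
log2 fold change of POLR2J, POLR2L and POLR1C in each fit that gave an adjusted p, with bars of 1 SE and filled points where the adjusted p was under 0.1. POLR2J and POLR2L are filled in every fit shown, and POLR1C is filled in the main fit and 4 others.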

How the data were processed

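The 6 Calu-6 libraries, 3 per group by the siRNA in the labels, were deposited as raw counts per transcript model. The authors made PCR-cDNA libraries, sequenced them on 1 flow cell for 72 h, and aligned reads to GRCh38.p14 with minimap2 2.14 (SAMtools 1.13 is also named in the submitters' processing notes). TranscriptClean then corrected reads, and TALON assigned them to Gencode 44 models at a coverage of at least 0.8 and an identity of at least 0.6. Models outside the annotation stayed in the deposited table if 3 samples had 5 or more reads. The deposited model lengths, in bases, were used as given. Count columns were matched to groups by their names, and 0 columns were left out. Labels and column names differ on the cells (WT or empty vector). The study's methods for this experiment describe stable lines, with the empty vector or with the tagged variant, so they go with the column names.

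Counts of the 21472 models were summed to 10072 genes. The test was edgeR 4.0.16 (R 4.3.3): filterByExpr, TMM, a quasi-likelihood fit of the groups without covariate, two-sided, with Benjamini-Hochberg adjustment over all 3888 tested genes and a call at an adjusted p under 0.1. The SE is the log2 fold change over the square root of F. Models were tested alike, and usage with diffSpliceDGE. Totals of 1037468 to 1309241 counts set the precision, and no member under 71 counts was tested. The members and lists were chosen with earlier results of these data known, and so was the rule for genes described in full: every member with an adjusted p under 0.1 or an unadjusted p under 0.05, and the 2 most abundant of each role. Coordinates and canonical transcripts come from Gencode 44 on GRCh38. Scripts were tested on simulated counts. Alternatives concerned the tool (DESeq2 1.42.0 with its own filter), the scaling (size factors of DESeq2, or totals alone), the filter (none, or 10 counts in every library), the models counted (annotated alone, or 1 rule for rows of both groups: added ones with 5 counts in each library, annotated ones seen in both), length (a loess trend removed, span 0.4), a replicate block, a threshold of 0.05, each library left out and, chosen after seeing the data, opposite-strand partners summed.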

Additional observations from a re-analysis of the deposited data

How the results depend on the processing

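POLR2J and POLR2L kept their direction and their call under every alternative fitted. POLR1C did not reach an adjusted p under 0.1 in 10 of its 14, and the cause was not tested. The number of members called was 3, and 2 to 6 with each library left out, 2 to 4 for models against 2, and 0 for usage. Over all genes, 503 passed (272 higher), against 279 (78 higher) with DESeq2, 252 (120 higher) on annotated models alone, 304 at an adjusted p under 0.05, and 298, 228 and 1041 without the siControl libraries and 317, 194 and 308 without the siDelta2-4 libraries of highest, middle and lowest total. Numbers in the column names did not pair the libraries (correlations of deviations 0.039, -0.136 and -0.0843), and a replicate block on them gave 299 genes (171 higher) and the members POLR2J and POLR2L. With library totals alone the median of all genes was 0.09, that of the members 0.11 and of polymerases I and III 0.15. With a length trend removed the medians were -0.02 for all members, 0.02 for polymerases I and III, 0.02 for TFII factors and -0.16 for elongins. Polymerases I and III had a median of 0.00 under the same row rule and -0.01 with partners summed. With each library left out, medians ranged from 0.01 to 0.12 for polymerases I and III, -0.11 to 0.03 for shared subunits, -0.04 to 0.27 for TFII factors and -0.09 to 0.25 for TAFs. Directions reversed for POLR2K (0.04 with library totals alone, -0.11 to 0.03 with each library left out, above 0 in 2 of these at 0.02 and 0.03), GTF2A2 (0.01 with library totals alone), ELOC (-0.11 with the length trend removed) and GTF2H5 (-0.04 to 0.44 with each library left out), none of which passed in any fit. POLR1C failed the minimum of 10 counts in every library and got no adjusted p from DESeq2, and TAF5 has no counts on annotated models, so these gave no value. The lowest tested member had 71 counts, and no member below that passed the filter.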

Other observations

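Smaller classes of the same genes, given as summed CPM with no test, differed in direction. Low members were listed only if read in siDelta2-4, so sums that rest on them do not treat the groups alike. POLR1C and POLR1D, the pair common to polymerases I and III, had sums of 93.4 ± 0.537 CPM for siControl and 109 ± 4.82 CPM for siDelta2-4 (mean ± SD over 3 libraries). Subunits of polymerase III alone summed to 118 ± 12.0 and 112 ± 2.53 CPM, and those of polymerase I alone to 23.8 ± 2.84 and 26.5 ± 2.21 CPM, or 4.46 ± 2.97 and 6.67 ± 1.45 CPM without POLR1G, whose counts lie mostly on added models. TFIIIC genes summed to 66.8 ± 11.1 and 81.3 ± 3.94 CPM. TFIID TAFs summed to 310 ± 15.1 and 299 ± 19.0 CPM, but without TAF5, which has no counts on annotated models, their means were 71.4 and 89.5 CPM, the opposite direction (62.6, 77.7 and 73.8 in siControl and 74.3, 92.4 and 102 in siDelta2-4, by highest, middle and lowest total). Among low classes, all on few counts, the SL1 subunits summed to 6.96 ± 3.56 and 4.43 ± 1.31 CPM, and POLR2M was at 2.22 and 1.94 CPM. Means were higher in siDelta2-4 for TFIIF (2.86 ± 0.98 and 7.95 ± 6.45 CPM), TFIIE (2.21 ± 2.18 and 3.5 ± 1.93 CPM) and TFIIIA (3.49 ± 1.08 and 5.76 ± 0.586 CPM). The groups overlapped for TFIIF and TFIIE but not for TFIIIA.

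Most members were read on 1 leading model. For POLR2H this was not an annotated model, and 87.1% of its counts were on an added model of 5 exons and 1188 bases that matches part of an annotated transcript. POLR2F had 76.0% of its counts on POLR2F-205, of 2070 bases, and 19.3% on an added model of 565 bases, and these had log2 fold changes of -0.11 and 0.08. ELOB had 71.9% on ELOB-203 and 25.6% on ELOB-202, a model with 3 exons in place of 4, with log2 fold changes of -0.15 and -0.10.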
